A study of Mus musculus with 4 samples.

Results

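The BCL2 family sets the threshold for mitochondrial apoptosis, and 10 of its genes were followed in neutrophils of the infarcted mouse heart. They were found by gene name among the 25655 genes of the data, and all 10 were present. The pro-survival members were *Mcl1*, *Bcl2*, *Bcl2l1* (BCL-XL) and the near-identical copies *Bcl2a1a*, *Bcl2a1b* and *Bcl2a1d* (A1). The pro-death members were *Bax*, *Bak1*, *Bcl2l11* (BIM) and *Bid*. Counts and TPM of the 3 A1 copies were added up, which gave 8 features, 4 pro-survival and 4 pro-death.

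RNA-Seq was performed on 4 libraries of CD45.2+CD11b+Ly6G+ cells that were sorted from the heart on day 3 after myocardial ischemia and reperfusion (MI/R). They came from SiglecF lo and SiglecF hi neutrophils of WT and *Cd300a-/-* mice, where the labels of the libraries give SiglecF as negative and positive. Each group was 1 library made from 8 pooled hearts, so no difference has a replicate check and the values describe these 4 libraries. The mice were adult males, the knockout of *Cd300a* was on the C57BL/6 background and was not limited to neutrophils, and an uninjured heart was not among the groups.

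Pro-survival proteins of the family hold BAX and BAK in check and bind the BH3-only proteins, such as BIM and BID, that would activate them. Once released, BAX and BAK open pores in the outer mitochondrial membrane, cytochrome c escapes, and caspases are activated. Neutrophils are short-lived cells that depend on MCL1, a protein with rapid turnover, and on A1, which inflammatory signals induce, while they carry little BCL2.

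The depth, as the sum of gene counts, was 9631901 for the WT and 10988619 for the *Cd300a-/-* library of SiglecF lo neutrophils, and 19278243 for the WT and 17632989 for the *Cd300a-/-* library of SiglecF hi neutrophils. The comparisons between genotypes and between subsets share these libraries and are not independent of each other. Levels are given as TPM, which is per length and can be compared between genes. Differences are the log2((TPM + 1) ratio), in which the added 1 makes ratios of weakly expressed genes smaller, with a 95% counting interval from the Poisson error of both counts. These intervals cover counting error only: the methods name no molecular identifiers, so copies made by PCR are counted too, and the mice within a pool cannot be separated. A gene was tested when its mean TPM over the 4 libraries was over 10, as for 6523 genes, and was counted as changed past 0.5 in either direction. A gene near this limit can pass it through the libraries where it is high, which favours a difference towards them. Of the 10 members 9 passed this limit, and of the 8 features 7 passed. *Bcl2* did not.

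*Cd300a*, the targeted gene, which encodes an inhibitory receptor, had in SiglecF lo neutrophils 3024 counts (126.7 TPM) in WT against 28 counts (1.06 TPM) in *Cd300a-/-*. In SiglecF hi neutrophils it had 6640 counts (162.9 TPM) in WT against 27 counts (0.74 TPM) in *Cd300a-/-*. Both knockout libraries were thus low in the targeted gene. *Siglecf* was high in both SiglecF hi libraries, at 354 TPM in WT against 405 TPM in *Cd300a-/-*, and low in the SiglecF lo libraries, at 11.3 and 15.3 TPM. *Ly6g*, whose protein was used in the sort, ran the other way and was low in both SiglecF hi libraries, at 11.1 TPM in WT and 41.9 TPM in the knockout, beside 330.4 and 889 TPM in the SiglecF lo libraries.

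All 8 neutrophil markers of the list used passed the limit, and *S100a9* was the most abundant, which for each list means the highest mean TPM over the 4 libraries. Sums of a list are over all its genes, with those under the limit. The summed level was 156150 TPM in WT against 204638 TPM in *Cd300a-/-* SiglecF lo neutrophils, and 29134 and 34285 TPM in the SiglecF hi neutrophils of these genotypes. *S100a8* and *S100a9* together took 13.8% and 17.3% of all TPM in the SiglecF lo libraries and 2.41% and 2.78% in the SiglecF hi libraries. Between subsets the median log2 ratio over all genes tested was 0.53 in WT and 0.61 in *Cd300a-/-* neutrophils. Ratios between subsets are therefore also given after centring on this median and after TMM scaling. Between genotypes the median was -0.02 for SiglecF lo and 0.04 for SiglecF hi neutrophils.

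The label of the cells was checked against markers of other types. Of 10 macrophage markers 9 passed the limit, with *C1qb* the highest in mean TPM, and their sum was 2881 and 2704 TPM in the SiglecF lo and 7032 and 6338 TPM in the SiglecF hi libraries, WT first. Transcripts of macrophages were thus present in each library and higher in the SiglecF hi libraries. Of 8 eosinophil markers 1, *Ear2*, passed, and their sum was 172.7 and 87.9 TPM in the SiglecF lo and 116.8 and 119.8 TPM in the SiglecF hi libraries. *Epx*, which defines eosinophils, had 0 counts in each library. Of 10 lymphocyte markers none passed, *Cd79b* had the highest mean TPM but was below *Cd2* in both SiglecF lo libraries, their sum lay between 14.8 and 22.7 TPM, and *Cd3e* had 0 counts in 3 libraries and 7 in WT SiglecF lo neutrophils. Of 6 cardiomyocyte markers 3 passed, *Myl2* had the highest mean TPM but was below *Tnnt2* in both SiglecF hi libraries, and their sum lay between 28.6 and 74.8 TPM. In bulk samples fewer cells of a type and less RNA per cell cannot be told apart.

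A1 and *Mcl1* were by far the most abundant members. The 3 A1 copies together were at 1385 TPM (5873 counts) in WT against 932 TPM (4365 counts) in *Cd300a-/-* SiglecF lo neutrophils, and at 3494 TPM (25306 counts) and 3832 TPM (24900 counts) in the SiglecF hi neutrophils of these genotypes. *Mcl1* was at 1265 TPM (22208 counts) in WT against 1524 TPM (29521 counts) in *Cd300a-/-* SiglecF lo neutrophils, and at 1501 TPM (45015 counts) and 1827 TPM (49063 counts) in the SiglecF hi neutrophils. A1 was the highest member in 3 of the 4 libraries, and *Mcl1* was the highest in *Cd300a-/-* SiglecF lo neutrophils. Ordered by TPM among all genes, A1 stood at rank 94 in WT and 146 in *Cd300a-/-* SiglecF lo neutrophils and at rank 30 and 27 in the SiglecF hi neutrophils, while *Mcl1* stood between rank 67 and 108. A1 made up 45.8% and 33.3% of the TPM of the 8 features in the SiglecF lo libraries and 64.2% and 62.6% in the SiglecF hi libraries. The share of *Mcl1* was 41.8% and 54.5% in the SiglecF lo and 27.6% and 29.9% in the SiglecF hi libraries, each pair with WT first.

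**Figure D1:**
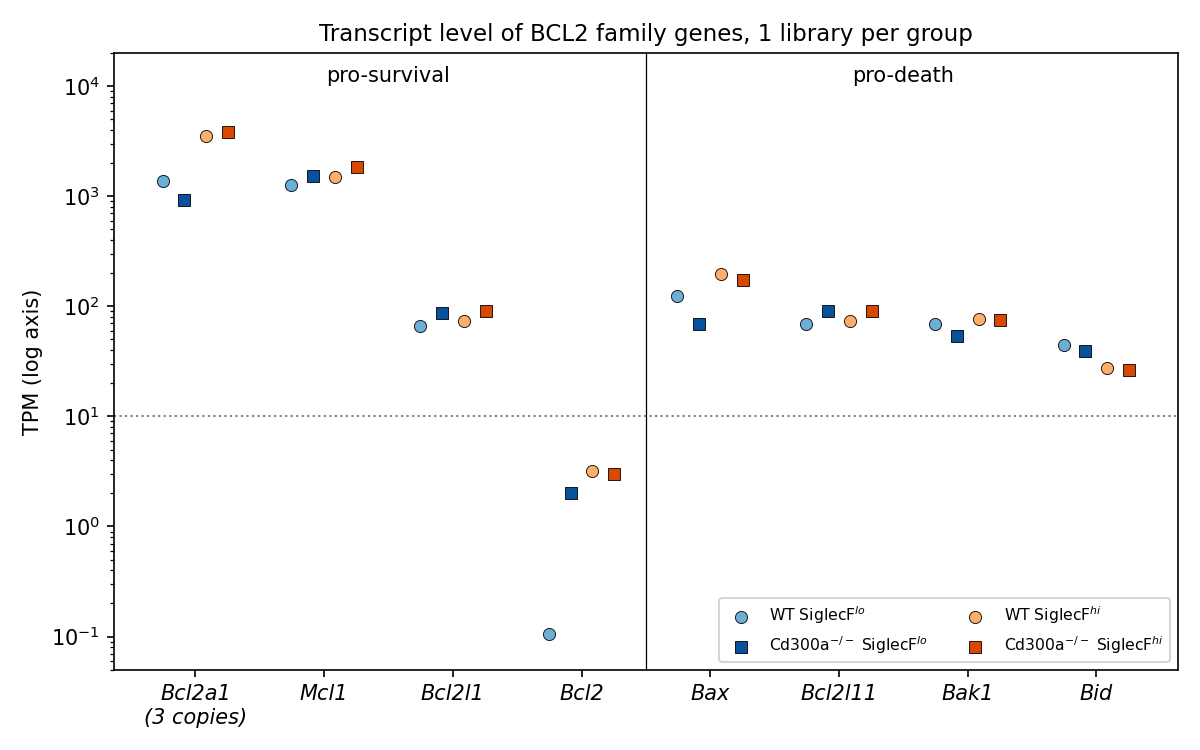
TPM of the 8 features on a log axis, with 1 point per library, circles for WT and squares for *Cd300a-/-*, blue for SiglecF lo and orange for SiglecF hi, and a dotted line at the limit of 10 TPM. A1 and *Mcl1* lie between 932 and 3832 TPM, the 4 pro-death members and *Bcl2l1* between 26.5 and 197.9 TPM, and *Bcl2* under the limit.

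*Bcl2l1* encodes BCL-XL, which holds BAX and BAK in check much as MCL1 does. It was at 66.2 TPM in WT against 86.7 TPM in *Cd300a-/-* SiglecF lo neutrophils, and at 72.9 and 90.2 TPM in the SiglecF hi neutrophils of these genotypes. Both knockout libraries were higher than the WT library of their subset. *Bcl2*, the founding member, had 5 counts in WT SiglecF lo neutrophils (0.106 TPM), with an exact 95% Poisson interval of 1.62 to 11.7 counts. In *Cd300a-/-* SiglecF lo neutrophils it had 104 counts (2.00 TPM), and in SiglecF hi neutrophils 256 counts (3.19 TPM) for WT against 217 counts (3.02 TPM) for *Cd300a-/-*. WT SiglecF lo neutrophils thus stood apart from the other libraries, all at a low level.

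Among the pro-death members, *Bax*, a pore-forming effector, was at 124.8 TPM (857 counts) in WT against 69.5 TPM (527 counts) in *Cd300a-/-* SiglecF lo neutrophils. It was at 197.9 TPM (2322 counts) in WT against 171.7 TPM (1803 counts) in *Cd300a-/-* SiglecF hi neutrophils. *Bax* was the highest pro-death member in 3 libraries, and *Bcl2l11* was in *Cd300a-/-* SiglecF lo neutrophils. *Bak1*, the other effector, was at 69.4 TPM in WT against 53.9 TPM in *Cd300a-/-* SiglecF lo neutrophils and at 76.2 and 75.5 TPM in the SiglecF hi neutrophils. *Bcl2l11* encodes BIM, a BH3-only protein that acts when growth factors are withdrawn. It was at 69.3 TPM in WT against 91.0 TPM in *Cd300a-/-* SiglecF lo neutrophils and at 73.9 and 90.5 TPM in the SiglecF hi neutrophils, close to the levels of *Bcl2l1* in each library. *Bid*, which links death receptors to mitochondria once caspase-8 cleaves its protein, was at 44.6 TPM in WT against 39.0 TPM in *Cd300a-/-* SiglecF lo neutrophils and at 27.5 and 26.5 TPM in the SiglecF hi neutrophils. It was the lowest pro-death member in each library.

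Summed over members, the pro-survival genes exceeded the pro-death genes in each library. The log2 ratio of their summed TPM was 3.14 (95% counting interval 3.09 to 3.19) in WT and 3.33 (3.28 to 3.38) in *Cd300a-/-* SiglecF lo neutrophils. It was 3.76 (3.72 to 3.79) in WT and 3.98 (3.94 to 4.02) in *Cd300a-/-* SiglecF hi neutrophils. A ratio within a library does not depend on the scaling between libraries, and its order from WT SiglecF lo to *Cd300a-/-* SiglecF hi neutrophils had no overlap of these intervals. Without A1 the ratio was 2.11 and 2.67 in the SiglecF lo libraries and 2.07 and 2.40 in the SiglecF hi libraries, WT first, so that *Cd300a-/-* SiglecF lo neutrophils were then the highest and the SiglecF hi libraries no longer stood above the SiglecF lo libraries. Without *Mcl1* it was 2.24 and 2.01 in the SiglecF lo and 3.25 and 3.43 in the SiglecF hi libraries, and the order of the genotypes in SiglecF lo neutrophils turned.

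The first comparison was that of genotypes in SiglecF lo neutrophils. Here A1 and *Bax* were lower in *Cd300a-/-* than in WT, and no feature was higher past 0.5. This is 2 of 7 features lower and 0 of 7 higher, where 19.9% of all genes tested were lower and 16.4% were higher, and so few features do not set the family apart from other genes. The log2 ratio was -0.57 (-0.63 to -0.51) for A1 and -0.83 (-0.99 to -0.68) for *Bax*. The other features lay within the threshold, *Mcl1* at 0.27 (0.24 to 0.29), *Bcl2l1* at 0.38 (0.29 to 0.47), *Bcl2l11* at 0.39 (0.32 to 0.46), *Bak1* at -0.36 (-0.50 to -0.22) and *Bid* at -0.19 (-0.34 to -0.04). The median was 0.27 over the 3 pro-survival features that passed and -0.27 over the 4 pro-death features, beside -0.02 over all genes, and with the A1 copies as separate features the pro-survival median turned to -0.37. The members of each class therefore did not move as 1 block, since A1 went against *Mcl1* and *Bcl2l1*, and *Bcl2l11* against *Bax* and *Bak1*. No sign in this comparison turned with TMM scaling or centring.

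Markers of other cells and stages also differed between the genotypes of SiglecF lo neutrophils. Of 6 endothelial markers 4 passed the limit and 3 of these were lower in *Cd300a-/-*, beside 19.9% of all genes tested. The sum of all 6 was 138.8 TPM in WT against 50.7 TPM in *Cd300a-/-*, beside 77.4 and 99.1 TPM in the SiglecF hi neutrophils of these genotypes, and *Pecam1*, the most abundant, went from 57.5 to 15.6 TPM (log2 ratio -1.82). Of 9 genes of immature neutrophils 4 passed and 3 were higher in *Cd300a-/-*, beside 16.4% of all genes, with a sum over all 9 of 1768 TPM in WT against 4038 TPM in *Cd300a-/-* and *Ngp* the highest in both libraries. The 3 were *Ngp*, *Ltf* and *Mki67* (0.61), while *Camp* was at 0.19. The genes of early stages, which were under the limit and are named after their values were seen, did not go 1 way. *Elane* had 0 counts in WT and 17 in *Cd300a-/-*, *Prtn3* 15 and 65, *Mpo* 28 and 7, and *Ctsg* 0 in both. Of the 8 neutrophil markers 3 were higher in *Cd300a-/-*, among them *Mmp8* (1.41) and *Retnlg* (0.99), the fibroblast marker *Postn* was higher (0.81) and the cardiomyocyte marker *Actc1* was lower (-0.86). *Ear2* was at 170.5 TPM in WT against 85.9 TPM in *Cd300a-/-*. Of the macrophage markers *Fcgr1* was lower (-1.22) and *Mrc1* was higher (0.66) in *Cd300a-/-*. The part of these transcripts in the lower *Bax* and A1 was not tested.

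*Bcl2* was under the limit and is given apart. Its plain TPM ratio of *Cd300a-/-* to WT in SiglecF lo neutrophils was 18.9 (exact 95% interval 7.83 to 59.3), while the log2((TPM + 1) ratio) was 1.44. Of 1296 genes with 80 to 140 counts in both SiglecF lo libraries together, a range chosen after the counts of *Bcl2* were seen, 2.31% were over 10-fold higher and 3.86% over 10-fold lower in *Cd300a-/-*. In SiglecF hi neutrophils the plain ratio was 0.947 (0.787 to 1.14).

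The second comparison was that of genotypes in SiglecF hi neutrophils. No feature passed 0.5, so 0 of 7 were higher and 0 of 7 lower, where 3.31% of all genes tested were higher and 3.46% were lower. *Mcl1* had a log2 ratio of 0.28 (0.27 to 0.30), *Bcl2l1* of 0.30 (0.23 to 0.37) and *Bcl2l11* of 0.29 (0.23 to 0.35). A1 had a ratio of 0.13 (0.11 to 0.16) and *Bax* of -0.20 (-0.29 to -0.12), and the intervals of *Bak1* (-0.12 to 0.09) and *Bid* (-0.20 to 0.10) held 0. The median was 0.28 over the pro-survival and -0.03 over the pro-death features, beside 0.04 over all genes. No sign turned with TMM scaling or centring. Of the 5 fibroblast markers over the limit 3 were lower in *Cd300a-/-* here, beside 3.46% of all genes, with a sum over all 6 named of 2000 TPM in WT against 1386 TPM in *Cd300a-/-*, and *Col1a2* had a log2 ratio of -0.69. Of the genes of immature neutrophils 3 of 4 were higher in *Cd300a-/-*, beside 3.31% of all genes, with a sum over all 9 of 100.4 TPM in WT against 512 TPM in *Cd300a-/-* and a ratio of 4.40 for *Ngp*. Here the 3 were *Ngp*, *Ltf* and *Camp*, while *Mki67* was at -0.35. Also higher in *Cd300a-/-* were 2 of the 8 neutrophil markers, *Retnlg* (1.20) and *Mmp8* (1.10), *Ly6g* (1.82), 1 of 4 endothelial markers, *Vwf* (0.58), and 1 of 3 cardiomyocyte markers, *Myl2* (0.71). The part of these transcripts in the ratios of the members was not tested.

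The genotype ratio of A1 was past 0.5 only in SiglecF lo neutrophils (-0.57). In SiglecF hi neutrophils it had the opposite sign but was small (0.13). Opposite signs, with both counting intervals leaving out 0, were found for 15.8% of all genes tested. The ratio in SiglecF lo minus that in SiglecF hi neutrophils was -0.70 (-0.77 to -0.64) for A1, -0.63 (-0.81 to -0.45) for *Bax* and -0.35 (-0.52 to -0.17) for *Bak1*. For *Mcl1* it was -0.02 (-0.05 to 0.02), for *Bcl2l1* 0.08 (-0.04 to 0.20), for *Bcl2l11* 0.10 (0.01 to 0.19) and for *Bid* -0.14 (-0.35 to 0.07). With 1 library per group this difference was not tested.

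**Figure D2:**
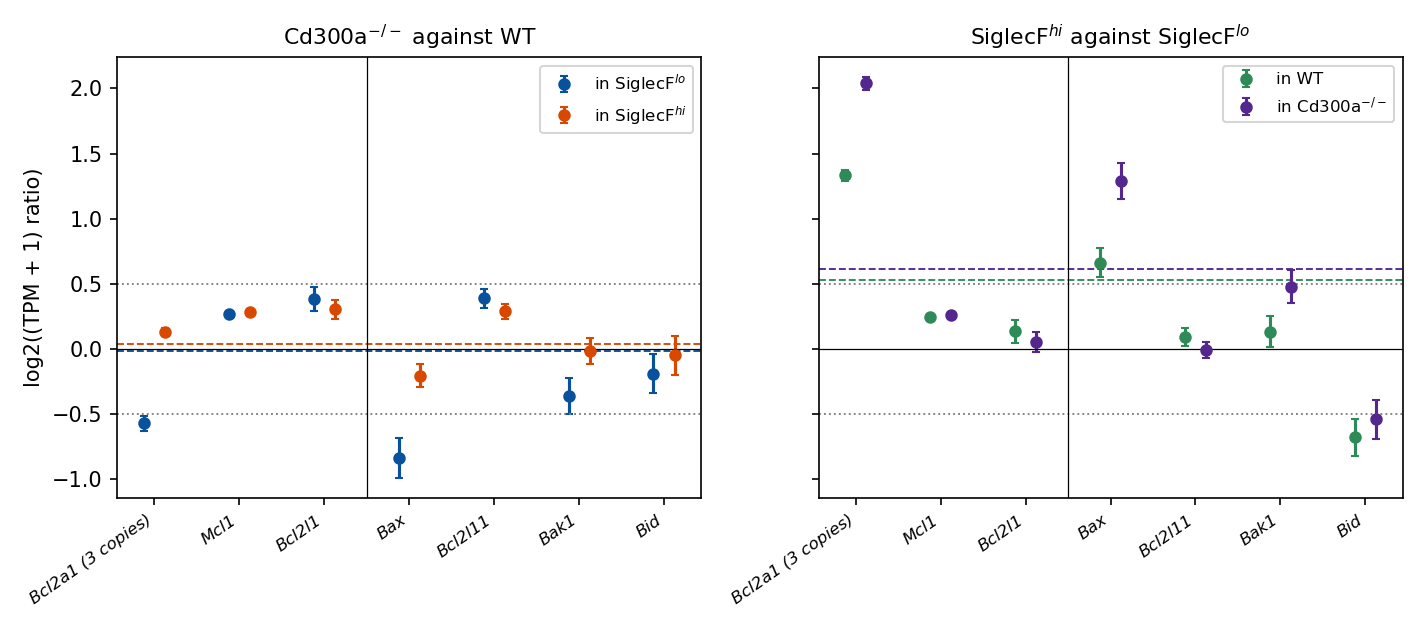
log2((TPM + 1) ratio) of the 7 features over the limit, *Cd300a-/-* against WT on the left and SiglecF hi against SiglecF lo on the right, with bars for the 95% counting interval, dotted lines at 0.5 in either direction and dashed lines at the median of all genes tested. A1 and *Bax* lie below -0.5 in SiglecF lo neutrophils on the left, and on the right *Mcl1*, *Bcl2l1* and *Bak1* lie above 0 but below the dashed lines, so that their direction turns with TMM scaling or centring, as does that of *Bcl2l11* in WT.

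The third comparison was that of subsets in WT neutrophils. A1 and *Bax* were higher and *Bid* was lower in SiglecF hi than in SiglecF lo neutrophils. This is 2 of 7 features higher and 1 of 7 lower, where 51.9% of all genes tested were higher and 7.47% were lower. The log2 ratio was 1.33 (1.29 to 1.37) for A1, 0.66 (0.55 to 0.77) for *Bax* and -0.68 (-0.82 to -0.53) for *Bid*. After centring, when 19.3% of all genes were higher and 20.9% lower, 1 feature was higher, A1 at 0.81, and 1 was lower, *Bid* at -1.21, while *Bax* was at 0.14. The ratios of *Mcl1* (0.25), *Bcl2l1* (0.14), *Bcl2l11* (0.09) and *Bak1* (0.13) turned to -0.28, -0.39, -0.43 and -0.39 after centring, and turned likewise with TMM scaling. *Bcl2* had a plain TPM ratio of 29.98 (12.7 to 93.1), which rests on the 5 counts in WT SiglecF lo neutrophils.

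The fourth comparison was that of subsets in *Cd300a-/-* neutrophils. Again A1 and *Bax* were higher and *Bid* was lower in SiglecF hi, 2 of 7 and 1 of 7 features, where 56.6% of all genes tested were higher and 7.97% were lower. The log2 ratio was 2.04 (1.99 to 2.08) for A1, 1.29 (1.15 to 1.43) for *Bax* and -0.54 (-0.69 to -0.39) for *Bid*. After centring, when 21.2% of all genes were higher and 23.6% lower, A1 (1.42) and *Bax* (0.68) were higher and *Bid* (-1.15), *Bcl2l11* (-0.62) and *Bcl2l1* (-0.56) were lower. The ratios of *Mcl1* (0.26), *Bcl2l1* (0.06) and *Bak1* (0.48) turned to -0.35, -0.56 and -0.13 after centring and turned likewise with TMM scaling. *Bcl2* had a plain ratio of 1.51 (1.19 to 1.92), and its log2((TPM + 1) ratio) of 0.42 turned to -0.19 after centring.

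Markers of other cell types and stages moved with the subsets as well. Their counts stand beside shares of all genes higher in SiglecF hi of 51.9% in WT and 56.6% in *Cd300a-/-*, or 19.3% and 21.2% after centring. The shares of all genes lower were 7.47% and 7.97%, or 20.9% and 23.6% after centring. Of the 9 macrophage markers over the limit 6 were higher in SiglecF hi in WT and 8 in *Cd300a-/-*, and *C1qb* had a log2 ratio of 1.43 in both, or 0.90 in WT and 0.82 in *Cd300a-/-* after centring, when 6 and 4 of the 9 were higher. Of 5 fibroblast markers over the limit 5 were higher in WT and 2 in *Cd300a-/-*, with *Dcn* the most abundant, and the sum of all 6 named was 924 and 937 TPM in the SiglecF lo and 2000 and 1386 TPM in the SiglecF hi libraries, WT first. After centring 3 were higher in WT, and in *Cd300a-/-* none was higher and 1, *Postn*, was lower (-0.55). Of the 4 endothelial markers over the limit 4 were lower in SiglecF hi in WT, while in *Cd300a-/-* 3 were higher, or 1 after centring. Of the 3 cardiomyocyte markers over the limit 1 was higher in WT and 2 in *Cd300a-/-*, or 0 and 1 after centring, when *Myl2* (-0.90) and *Actc1* (-0.75) were lower in WT, and *Ear2* was lower in WT (-0.63). Of the 8 neutrophil markers 5 were lower in SiglecF hi in WT and 6 in *Cd300a-/-*. Of the 4 genes of immature neutrophils over the limit 1 was higher and 3 were lower in both genotypes, *Ngp* by -6.40 in WT and -3.40 in *Cd300a-/-*, *Camp* by -5.65 and -2.89 and *Ltf* by -2.73 and -2.09. The higher gene was *Mki67* (1.99 in WT and 1.03 in *Cd300a-/-*). It passed the limit only through the SiglecF hi libraries (17.7 and 13.6 TPM, beside 3.69 and 6.17 TPM in SiglecF lo), which favours this direction. After centring the same 3 were lower in both, and 1 was higher in WT and none in *Cd300a-/-*. The part of these transcripts in the higher A1 and *Bax* was not tested.

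In the data *Mcl1* (ENSMUSG00000038612) lies on chromosome 3 from 95566099 to 95570487 on the plus strand and *Bax* (ENSMUSG00000003873) on chromosome 7 from 45111121 to 45116322 on the minus strand, in the build GRCm39 that the submitters' processing notes name. *Bid* (ENSMUSG00000004446) lies on chromosome 6, *Bak1* (ENSMUSG00000057789) on chromosome 17 and *Bcl2* (ENSMUSG00000057329) on chromosome 1. *Bcl2l1* (ENSMUSG00000007659) and *Bcl2l11* (ENSMUSG00000027381) both lie on chromosome 2.

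The copies of A1 were also given singly, because reads of near-identical copies may be placed on any of them, and their split is uncertain. The copy *Bcl2a1d* (ENSMUSG00000099974) lies on chromosome 9 from 88605338 to 88613967 on the minus strand, *Bcl2a1a* (ENSMUSG00000102037) from 88838953 to 88844472 and *Bcl2a1b* (ENSMUSG00000089929) from 89081262 to 89089880 on the plus strand, in the same build. *Bcl2a1b* held 68.3% (Wilson 95% interval 67.1 to 69.5) of the A1 counts in WT and 64.4% (63.0 to 65.8) in *Cd300a-/-* SiglecF lo neutrophils, and 66.4% (65.9 to 67.0) and 63.1% (62.5 to 63.7) in the SiglecF hi neutrophils. It had the most counts of the copies in each library. *Bcl2a1d* held 17.6% and 19.5% in the SiglecF lo and 18.3% and 22.5% in the SiglecF hi libraries, WT first. Each copy was lower in *Cd300a-/-* than WT neutrophils of the SiglecF lo subset, *Bcl2a1a* by a log2 ratio of -0.37, *Bcl2a1b* of -0.65 and *Bcl2a1d* of -0.43. In SiglecF hi neutrophils *Bcl2a1d* had a ratio of 0.43 (0.38 to 0.49), while *Bcl2a1a* had 0.05 (-0.01 to 0.12) and *Bcl2a1b* 0.06 (0.03 to 0.09).

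The coding sequences show how alike the copies are. Each has 519 coding bases over 2 exons in GENCODE M21. Of these, 11 differ between *Bcl2a1a* and *Bcl2a1b*, 7 between *Bcl2a1a* and *Bcl2a1d* and 6 between *Bcl2a1b* and *Bcl2a1d*, which is an identity of 97.9%, 98.7% and 98.8%. Of the 445 windows of 75 bases, about the length of a short read, 151 (33.9%) are identical in the 3 copies, and others are shared by 2 of them. The share found in 1 copy alone is 37.5% for *Bcl2a1a*, 60.2% for *Bcl2a1b* and 31.7% for *Bcl2a1d*. A read within any other window cannot be given to 1 copy from the bases of that window alone. Mates of paired-end reads and bases outside the coding sequence were not part of this count. *Bcl2a1b*, the copy with the most counts, is also the copy with the most windows of its own. *Bcl2a1d* has the fewest windows of its own, but it had more counts than *Bcl2a1a* in each library. *Bcl2a1a* held 14.1% and 16.1% of the A1 counts in the SiglecF lo and 15.3% and 14.4% in the SiglecF hi libraries, WT first. The part of read placement in this split was not tested. The first 120 coding bases, in the first coding exon, hold 7 of the 12 positions that differ in any copy, and these are in capitals. They lie at chr9:88957051-88957170 (plus strand) for *Bcl2a1a*, chr9:89199360-89199479 (plus) for *Bcl2a1b* and chr9:88731600-88731719 (minus) for *Bcl2a1d* in GRCm38.
Bcl2a1a: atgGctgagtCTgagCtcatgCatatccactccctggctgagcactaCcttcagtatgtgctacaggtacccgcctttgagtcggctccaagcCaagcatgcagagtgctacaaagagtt
Bcl2a1b: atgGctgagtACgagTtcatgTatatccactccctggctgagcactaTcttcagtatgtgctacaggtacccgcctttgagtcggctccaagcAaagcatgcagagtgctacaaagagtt
Bcl2a1d: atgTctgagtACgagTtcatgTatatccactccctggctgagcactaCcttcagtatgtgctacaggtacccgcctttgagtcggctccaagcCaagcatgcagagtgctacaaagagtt

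The copies also share sequence before their starts, and whether this bears on their levels was not tested. RefSeq promoter windows of 300 bases (GRCm38.p6) were found for all 10 members, 13 windows in all, and the 3 A1 windows share a run of 84 bases. Each A1 window holds GAGGAAGT, the core bound by PU.1, a myeloid transcription factor, in a form chosen after the sequences were seen. On either strand it is present in 4 of the 13 windows, those of the A1 copies and *Bak1*, and in 3.20% of 32851 promoter windows. With the near-identical A1 copies taken as 1, it is in 2 of the 8 features. The kappaB motif was present in 1 of the 13 windows, of *Bcl2l1*, and in 8.46% of windows. A match is a description of letters and not of binding. The stretches around the motif, in capitals, are at chr9:88956791-88956848 (plus strand) for *Bcl2a1a*, chr9:89199100-89199157 (plus) for *Bcl2a1b* and chr9:88731922-88731979 (minus) for *Bcl2a1d*, each before the start.
Bcl2a1a: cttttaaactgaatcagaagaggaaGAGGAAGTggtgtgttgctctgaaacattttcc
Bcl2a1b: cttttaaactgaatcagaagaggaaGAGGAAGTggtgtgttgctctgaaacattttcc
Bcl2a1d: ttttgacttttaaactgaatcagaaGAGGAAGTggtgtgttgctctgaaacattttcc

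Among genes over the limit, those with the most similar pattern over the 4 libraries were found for the 3 features of highest mean TPM, by the root mean square difference of log2(TPM + 1), centred per gene. For A1 they were *Ccl3* (0.0147), *Nudcd2* (0.0316) and *Xrcc1* (0.0471). *Ccl3*, a chemokine gene, was at 1451 and 969.8 TPM in the SiglecF lo and 3561 and 3988 TPM in the SiglecF hi libraries, WT first, close to A1 in level as well. For *Mcl1* they were *Cyld* (0.0102), *Plcg2* (0.0241) and *Ankrd44* (0.0244), and for *Bax* *Aprt* (0.0255), *Ifi30* (0.0271) and *Col15a1* (0.0304).

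Other BH3-only genes were described next. Of 8 such genes 5 passed the limit. In SiglecF lo neutrophils none passed 0.5 between genotypes, where 16.4% of all genes were higher and 19.9% lower. In SiglecF hi neutrophils 1 of 5, *Bad*, was lower in *Cd300a-/-* (-0.53), beside 3.46% of all genes. *Pmaip1* encodes NOXA, which binds MCL1 and A1, and had the highest mean TPM, at 86.5 and 72.3 TPM in the SiglecF lo and 176.6 and 232.6 TPM in the SiglecF hi libraries, WT first. It was higher in SiglecF hi neutrophils by a log2 ratio of 1.02 in WT and 1.67 in *Cd300a-/-*, or 0.50 and 1.06 after centring. *Bbc3*, which encodes PUMA, was higher by 1.31 and 1.14, or 0.79 and 0.53 after centring. It passed the limit only through the SiglecF hi libraries (17.6 and 15.7 TPM, beside 6.47 and 6.57 TPM in SiglecF lo), which favours this direction. *Bnip3l* lay between 112.9 and 134.9 TPM, above *Pmaip1* in both SiglecF lo libraries. *Trp53*, whose protein induces *Pmaip1*, *Bbc3* and *Bax*, was at 24.4 and 17.1 TPM in the SiglecF lo and 48.6 and 59.2 TPM in the SiglecF hi libraries. Its log2 ratio between subsets was 0.97 in WT and 1.73 in *Cd300a-/-*, or 0.44 and 1.12 after centring. The part of *Trp53* in the levels of these genes was not tested.

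Of the other survival genes none of 3 passed the limit. *Bcl2l2* had at most 136 counts, *Bcl2a1c*, a further A1 copy, at most 21, and *Bcl2l10* had 0 counts in each library. *Bok*, a further effector, had 90 counts in WT against 12 counts in *Cd300a-/-* SiglecF lo neutrophils, with 50 and 33 counts in the SiglecF hi neutrophils. Of 5 other BCL2-like genes 2, *Bclaf1* and *Bcl2l13*, passed, and neither passed 0.5 between genotypes.

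Below the mitochondria, *Apaf1*, which encodes the scaffold of the apoptosome, was higher in *Cd300a-/-* than WT neutrophils of the SiglecF lo subset (0.61). *Aifm1*, which encodes a mitochondrial flavoprotein, was lower in *Cd300a-/-* in both subsets (-0.72 in SiglecF lo and -0.57 in SiglecF hi).

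Of 9 genes for inhibitors of apoptosis 6 passed. *Birc3* was the most abundant, at 149.8 and 146.9 TPM in the SiglecF lo and 149.7 and 195.7 TPM in the SiglecF hi libraries, WT first. In SiglecF lo neutrophils *Xiap* and *Birc6* were higher in *Cd300a-/-* (0.88 and 0.55), 2 of 6 beside 16.4% of all genes, and none passed 0.5 in SiglecF hi neutrophils. The median was 0.43 and 0.29 in these comparisons. Of 10 death receptor genes 6 passed, and *Cflar*, whose protein blocks caspase-8, was higher in *Cd300a-/-* SiglecF lo neutrophils (0.82), 1 of 6 beside 16.4% of all genes. *Tradd* was past 0.5 in SiglecF hi neutrophils only after centring (-0.54). *Tnfrsf1b* was the most abundant, between 476 and 655 TPM. *Fas* was lower in SiglecF hi than in SiglecF lo neutrophils of WT (-0.67, or -1.19 after centring) and did not differ past its counting interval in *Cd300a-/-* (0.004, -0.12 to 0.13), where it was lower after centring (-0.61).

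Of 7 genes of lytic death 6 passed, and none was past 0.5 between genotypes. Of all genes 16.4% were higher and 19.9% lower between genotypes in SiglecF lo neutrophils, and 3.31% and 3.46% in SiglecF hi neutrophils. Between subsets 2 of the 6 were lower in SiglecF hi in WT and 1 in *Cd300a-/-*, beside 7.47% and 7.97% of all genes. After centring 4 of the 6 were lower in both, beside 20.9% and 23.6%. *Casp4*, the most abundant, had a log2 ratio of -0.50 in WT and -0.31 in *Cd300a-/-*, or -1.03 and -0.92 after centring. *Gsdme* was lower in SiglecF hi neutrophils (-0.96 in WT and -1.20 in *Cd300a-/-*, or -1.49 and -1.81 after centring). It passed the limit only through the SiglecF lo libraries (11.9 and 16.4 TPM, beside 5.62 and 6.59 TPM in SiglecF hi), and the limit favours this direction too. Of 7 genes for the turnover of MCL1 protein 3 passed. *Usp9x*, which encodes a deubiquitinase that stabilizes MCL1, was higher in *Cd300a-/-* than WT neutrophils of the SiglecF lo subset (0.56), 1 of 3 beside 16.4% of all genes, and *Huwe1*, which encodes a ligase for MCL1, had a ratio of 0.20. In SiglecF hi neutrophils none passed 0.5.

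Receptors for cytokines that keep neutrophils alive were described last. All 7 genes passed, 3 were higher in *Cd300a-/-* than WT neutrophils of the SiglecF lo subset, where 16.4% of all genes were, and none passed 0.5 in SiglecF hi neutrophils. The 3 were the GM-CSF receptor genes *Csf2rb* (0.59) and *Csf2ra* (0.56) and *Csf2rb2* (0.93), which encodes a beta chain of the IL-3 receptor. *Csf3r*, the gene of the receptor for G-CSF and the most abundant, had a ratio of 0.28. Of 10 regulators of survival 9 passed, and *Nfkb1* and *Stat3* were higher in *Cd300a-/-* SiglecF lo neutrophils (both 0.51), 2 of 9 beside 16.4% of all genes. *Pim1*, which encodes a survival kinase, was higher in SiglecF hi than in SiglecF lo neutrophils (0.68 in WT and 0.87 in *Cd300a-/-*, or 0.15 and 0.26 after centring).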

How the data were processed

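For each gene of each library the authors deposited a count, an RPKM, a TPM and a scaled signal named CPM, made with CLC Genomics Workbench from poly(A)-selected, paired-end RNA-Seq. Whether reads or pairs were counted, and how reads of near-identical copies were placed, is not given in the sources used here. The submitters' processing notes name the build GRCm39. TPM and counts were used, and the deposited RPKM and signal were not. Python 3.11.15 (numpy 2.4.6, pandas 2.3.3, scipy 1.17.1, matplotlib 3.10.9) was used, and edgeR 4.0.16 in R 4.3.3 served only for TMM factors. With 1 library per group no test compared conditions. An additive edgeR fit, which would treat the subset dependence of genotype as error, was not made. Calculations were tested on simulated data. The members and lists were chosen with earlier results of these data known. Named from each other list were the 3 genes of highest mean TPM and the 2 of largest ratio in each comparison, and other genes were named after their values were seen. Alternatives were a pseudocount of 0.1, TMM scaling, centring, other TPM limits, a threshold of 1 and separate A1 copies. Sequences came from GENCODE M21 and RefSeq.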

Additional observations from a re-analysis of the deposited data

Results flagged for a closer look

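Among features of the lists with a mean TPM over 10, the A1 copies taken as 1, the difference between *Cd300a-/-* and WT had opposite signs in the subsets, with both counting intervals leaving out 0, for 18 of 99 (18.2%). Over all 6523 genes past this limit the share was 15.8%. The values are the log2 ratio in SiglecF lo minus that in SiglecF hi neutrophils. Among the members it was -0.70 for A1, with -0.71 for the copy *Bcl2a1b* and -0.86 for *Bcl2a1d*. Among the genes of cell death and survival it was -0.65 for *Pmaip1*, -0.66 for *Bnip3*, -0.67 for *Fas*, -0.58 for *Zbp1*, -0.77 for *Trp53*, 0.54 for *Ripk1*, 0.59 for *Casp1* and 0.65 for *Usp9x*. Among the genes of neutrophils it was -0.47 for *Cxcr4* and 0.96 for *Mki67*. Among the markers of other cell types it was -0.28 for *Csf1r*, 0.73 for *Mrc1*, -2.20 for *Pecam1*, -1.74 for *Cdh5*, -0.93 for *Vwf*, 0.86 for *Col1a1* and 1.23 for *Postn*. With 1 library per group the difference between subsets was not tested for any of them. *Ripk1*, *Casp1*, *Cxcr4*, *Mki67*, *Csf1r* and *Col1a1* were named after their values were seen.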

How the results depend on the processing

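Leave-one-out was not possible because each group has 1 library. No paired analysis was possible with 1 library per group, and the shared replicate number 1 names no pairing. Whether both subsets of a genotype were sorted from the same pooled hearts is not given in the sources used here. A pseudocount of 0.1 changed no count by over 1.5 times and no median beyond its counting interval, and moved 2 values of single features, both of *Bcl2*, to 3.35 between genotypes in SiglecF lo neutrophils and 3.99 between subsets in WT. For subsets, TMM scaling left 1 feature higher in WT and put 3 lower in *Cd300a-/-*. It turned the pro-survival medians to -0.29 and -0.32 and the pro-death medians to -0.42 and -0.34, WT first. Centring likewise left 1 higher and put 3 lower, with medians of -0.28 and -0.35 and of -0.41 and -0.38, and gave a pro-survival median of 0.25 between genotypes in SiglecF hi neutrophils. A mean TPM over 1, which takes in *Bcl2* and more genes, gave 5178, 1716, 7317 and 7619 genes past 0.5 in the 4 comparisons in the order of the report, 1 feature higher in *Cd300a-/-* SiglecF lo neutrophils and pro-survival medians of 0.33, 0.21, 0.79 and 0.34. A TPM over 10 in at least 1 library gave 709 genes between genotypes in SiglecF hi neutrophils. With the A1 copies separate the pro-survival medians were -0.37 between genotypes in SiglecF lo neutrophils and 1.29 and 1.88 between subsets, with 4 features higher in each genotype. A threshold of 1 left 611, 46, 1520 and 1975 genes, 0 features lower in SiglecF lo neutrophils, 1 higher and 0 lower between subsets in WT and 0 lower in *Cd300a-/-*. The log2 ratio of pro-survival to pro-death TPM, in the order WT SiglecF lo, *Cd300a-/-* SiglecF lo, WT SiglecF hi and *Cd300a-/-* SiglecF hi, was 2.24, 2.01, 3.25 and 3.43 without *Mcl1*, 2.11, 2.67, 2.07 and 2.40 without A1, and 2.60, 2.72, 3.01 and 3.14 from counts. No value of a feature called in the main setting turned its sign. Other genes called between subsets in *Cd300a-/-* neutrophils did after centring, as *Cflar* from 0.59 to -0.03 and *Casp8* from 0.54 to -0.07. The causes were not tested. Counts limit *Bcl2* most, which had 5 in WT SiglecF lo neutrophils.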
